A study of Mus musculus with 8 samples.

Results

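Long protein-coding genes were defined here by length alone: annotated as protein coding in the deposited table and spanning at least 100 kb from start to end. The rule used no measured signal. It gave 2218 genes of the 16394 protein-coding genes with coordinates and of the 25259 genes in all. The cells came from mouse lines of pancreatic ductal adenocarcinoma on a C57BL/6 background, either knockout (KO) or wild type (WT) for Setd2. The assay was CUT&Tag, where an antibody against a histone mark brings a transposase that releases nearby DNA for sequencing. The labels call all samples cultured pancreatic tumor cells, whereas the series title describes cells sorted from orthotopic tumors. Each of 8 groups had 1 library: H3K36me3 over gene bodies in KO and WT, H3K27ac at promoters in KO and WT, a further pair of H3K27ac libraries whose titles carry the word vitro, and H3K27me3 at promoters in KO and WT. How many lines or clones stand behind a genotype, how the knockout was made and what other alleles the lines carry were not given in the sources used here. With 1 library per group no difference has a replicate check, and no test was run.

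Setd2 is the methyltransferase that writes H3K36me3 in mammals. It travels with elongating RNA polymerase II, so the mark is known to lie over the bodies of transcribed genes, and long genes offer the largest area on which to measure it. H3K27ac marks active promoters and enhancers, and H3K27me3, written by Polycomb repressive complex 2, marks repressed promoters; H3K36me3 on a nucleosome is known to hinder that complex. Many of the longest mammalian genes encode synaptic adhesion proteins, ion channels and cell polarity proteins.

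The 10 longest members show what the class holds. By the table they ran from 2960900 bases for Fgfr2, a fibroblast growth factor receptor, to 1550396 bases for Pcdh15, a protocadherin of the inner ear. Ptprd (2270724 bases, a receptor phosphatase), Dmd (dystrophin), Lsamp (a neuronal adhesion protein), Macrod2, Dlg2 (a synaptic scaffold), Csmd1, Nrxn3 (a neurexin) and Fhit stood between them. Their H3K36me3 signal per kilobase lay between 1.78 for Dmd and 3.64 for Fhit in KO. In WT it lay between 1.61 for Dmd and 6.49 for Fgfr2. The log2 ratio of KO over WT was -0.84 for Fgfr2 and lay between -0.09 for Csmd1 and 0.24 for Fhit in the others. The window behind the Fgfr2 value was 104358 bases long, which is the length of its RefSeq locus. The windows of Pcdh15 (827866 bases) and Dlg2 (1358461 bases) were also well short of their spans.

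That window could be read from the values themselves. Each deposited number is a scaled read count per base, and a gene's value times the right length comes out in whole hundredths in both H3K36me3 libraries. A length that fits was found in this way for all 2218 members and is called the window here. It lay within 5% of the RefSeq locus length for 1987 of them, with a median of 158371 bases. In 157 members the recovered window was under 100 kb and in 73 it was under 50 kb. Where that length is the true one, the H3K36me3 values come from less sequence than the annotated span. The search kept the shortest length that fits and tried multiples of it only up to 20, so some recovered windows may be fractions of longer ones. Akap9 (7239 bases, span 153257) and Kdm2b (4737 bases, span 119159) may be such cases. How many there are was not tested. Just inside the length limit lay Map2k4 with 100055 bases and just outside it Tut4 with 99996 bases; their H3K36me3 was 3.25 and 2.02 in KO and 2.37 and 2.76 in WT.

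The sums over windows came in steps of 0.657 to 0.707, with 7.71 to 22.7% of small sums on odd multiples of a step only 50% as large; a full step is taken here as 1 read. On that reading the median member held 935 reads in the KO and 976 in the WT H3K36me3 library. A promoter window, 6000 bases in all pairs, held a median of 69.0 WT reads for H3K27ac lacking the vitro label. For the other promoter pairs the medians were 65.5 KO and 57.0 WT reads for vitro H3K27ac, and 58.0 KO and 47.0 WT reads for H3K27me3. Counting error alone would then give a log2 ratio an SD of 0.06 for a typical H3K36me3 member and 0.21 to 0.25 for a typical promoter. Whether the reads are independent of each other was not tested, and without replicates these figures cover counting error only.

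The Setd2 locus spans 86037 bases (chromosome 9, 110532597 to 110618633, mm10, as the table gives it) and so is not a member. Its H3K36me3 was 2.32 per kilobase in KO and 2.38 in WT, which covers the whole gene body and does not check the deletion. Keratin genes and other epithelial markers had a summed promoter H3K27ac of 493 in vitro KO and 462 in vitro WT. The sums were 319 and 187 in the pair lacking that label. Krt8, Krt18 and Krt19 held most of the vitro sum, while Cdh1 had 5.72 in vitro KO and 24.0 in vitro WT, Cldn7 had 6.29 and 42.9, and the median of the 8 markers was 31.6 and 36.1. The 8 leukocyte markers summed to between 52.4 and 65.2 in the 4 libraries. Cd68 held most of the sum in KO, with 46.0, and in vitro KO, with 45.5. The leukocyte median was 3.07 in KO and 6.015 in WT, and 2.145 and 2.87 in the vitro pair, opposite to the sums. The 5 endothelial markers summed to between 14.7 and 39.7. The 7 fibroblast markers summed to 100.2 in KO against 60.9 in WT, and to 56.6 against 21.7 in the vitro pair. The vitro difference lay in Col1a1, with 23.8 in KO and 5.29 in WT, and Col3a1, with 17.7 and 0.92. Outside the vitro pair the median of the 7 was 8.435 in KO and 10.3 in WT, opposite to the sum. The part of these markers in the results was not tested.

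The promoters below belong to genes near the ends of the vitro H3K27ac and H3K27me3 rankings among members above the median of mean signal. They are a selection with a RefSeq entry (GRCm38.p6, 250 bases before to 50 after the start site) inside the measured window, and members with ratios as wide are not all shown. Capitals mark the GC box GGGCGG on either strand, so also its reverse complement CCGCCC where that lies on the strand printed. The TATA motif TATAAA was searched on both strands as well, and overlapping matches were counted. Vitro H3K27ac was higher in KO at Col5a1 (chr2:27886175-27886474, plus strand), the alpha chain of a fibrillar collagen, and Rasgrf1 (chr9:89909525-89909824, plus strand), an exchange factor for Ras. It was lower in KO at Pclo (chr5:14514668-14514967, plus strand), a presynaptic scaffold, and Atp8a1 (chr5:67847382-67847681, minus strand), a phospholipid flippase.
Col5a1: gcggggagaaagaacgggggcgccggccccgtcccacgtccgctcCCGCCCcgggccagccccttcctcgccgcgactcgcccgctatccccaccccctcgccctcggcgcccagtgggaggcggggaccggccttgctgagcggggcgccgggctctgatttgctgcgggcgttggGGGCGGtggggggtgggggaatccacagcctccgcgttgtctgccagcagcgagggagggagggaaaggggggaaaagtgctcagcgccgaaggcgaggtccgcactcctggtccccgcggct
Rasgrf1: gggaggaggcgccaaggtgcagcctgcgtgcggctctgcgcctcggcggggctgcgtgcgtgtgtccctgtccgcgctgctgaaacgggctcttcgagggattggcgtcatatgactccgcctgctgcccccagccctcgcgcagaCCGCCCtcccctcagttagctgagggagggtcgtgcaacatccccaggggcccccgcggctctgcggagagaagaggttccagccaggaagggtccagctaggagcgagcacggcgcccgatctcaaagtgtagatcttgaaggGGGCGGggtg
Pclo: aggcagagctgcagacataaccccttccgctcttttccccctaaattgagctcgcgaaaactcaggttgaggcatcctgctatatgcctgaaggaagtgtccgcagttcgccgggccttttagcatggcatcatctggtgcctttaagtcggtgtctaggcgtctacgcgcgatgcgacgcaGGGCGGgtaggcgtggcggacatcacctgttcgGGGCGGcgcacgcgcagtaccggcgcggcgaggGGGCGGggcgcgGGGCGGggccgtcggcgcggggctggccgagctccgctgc
Atp8a1: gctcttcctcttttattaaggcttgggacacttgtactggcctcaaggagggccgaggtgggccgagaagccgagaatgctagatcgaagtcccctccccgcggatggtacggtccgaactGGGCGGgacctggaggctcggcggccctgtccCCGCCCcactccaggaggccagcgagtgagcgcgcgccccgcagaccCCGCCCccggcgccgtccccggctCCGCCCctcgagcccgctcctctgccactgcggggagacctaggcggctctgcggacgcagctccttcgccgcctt
All 4 were rich in CpG, with 34, 26, 35 and 31 CpG dinucleotides in that order, and held 2, 2, 4 and 4 GC boxes and no TATAAA.

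H3K27me3 was higher in KO at Tanc2 (chr11:105589736-105590035, plus strand), a postsynaptic scaffold, and Plcb4 (chr2:135659297-135659596, plus strand), a phospholipase C. It was lower in KO at Csrnp3 (chr2:65845517-65845816, plus strand) and Tprg (chr16:25286567-25286866, plus strand).
Tanc2: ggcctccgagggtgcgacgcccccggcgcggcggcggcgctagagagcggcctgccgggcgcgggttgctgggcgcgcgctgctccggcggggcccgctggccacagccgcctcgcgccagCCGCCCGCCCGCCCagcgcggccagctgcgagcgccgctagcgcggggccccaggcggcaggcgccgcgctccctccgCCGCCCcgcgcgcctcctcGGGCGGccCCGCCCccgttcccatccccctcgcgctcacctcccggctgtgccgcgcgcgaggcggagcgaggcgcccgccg
Plcb4: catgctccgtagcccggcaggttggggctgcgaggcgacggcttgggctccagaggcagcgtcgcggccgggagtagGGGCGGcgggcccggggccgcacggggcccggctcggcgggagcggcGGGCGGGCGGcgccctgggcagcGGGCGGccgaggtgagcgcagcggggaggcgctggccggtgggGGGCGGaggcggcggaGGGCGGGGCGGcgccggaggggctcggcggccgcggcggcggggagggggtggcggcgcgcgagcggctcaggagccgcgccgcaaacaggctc
Csrnp3: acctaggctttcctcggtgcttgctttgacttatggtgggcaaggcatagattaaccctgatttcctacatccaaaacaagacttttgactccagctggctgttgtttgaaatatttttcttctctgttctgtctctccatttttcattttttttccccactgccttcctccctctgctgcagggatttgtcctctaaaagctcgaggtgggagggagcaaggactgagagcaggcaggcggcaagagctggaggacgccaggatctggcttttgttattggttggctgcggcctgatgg
Tprg: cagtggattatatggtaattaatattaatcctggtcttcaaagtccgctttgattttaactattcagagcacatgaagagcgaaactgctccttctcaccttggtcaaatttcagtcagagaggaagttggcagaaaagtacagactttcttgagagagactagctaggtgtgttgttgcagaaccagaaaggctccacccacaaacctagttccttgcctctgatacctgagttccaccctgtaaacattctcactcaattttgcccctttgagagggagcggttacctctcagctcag
Tanc2 and Plcb4 had 57 and 50 CpG and 6 and 7 GC boxes. Csrnp3 and Tprg had 5 and 3 CpG and no GC box. Of the members, 1475 had a RefSeq promoter whose start site lay less than 3 kb from the one in the table. They held a median of 23 CpG, 65.9% had a GC box and 5.97% had TATAAA, against 7, 35.7% and 13.6% over all 32851 RefSeq promoters of that length. The sets are unlike: each long gene entered with the promoter nearest its start site, while the other set held every entry, with no filter on gene type. Shorter protein-coding genes were not compared, so these shares do not show a trait of long genes. These long genes were ranked by WT vitro H3K27ac into 5 groups of equal size. From the lowest to the highest group the share with a GC box went from 45.1% to 76.9%, and the median CpG count from 13 to 28. Across 5 groups ranked by WT H3K27me3 the share with a GC box stayed between 63.7 and 69.2%.

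The H3K36me3 comparison asks whether the mark written by Setd2 differed over long gene bodies between genotypes. How the authors scaled each library is not stated, so a difference shared by all genes could have been scaled away and the values compare genes within the scaled libraries. The median signal per kilobase over all 2218 members was 3.70 in KO and 3.78 in WT, and the middle of the distribution, from the 10th to the 90th percentile, ran from 1.99 to 6.32 in KO and from 1.88 to 6.83 in WT. KO was above WT in 1048 members and below it in 1170. For ratios, a floor equal to the 25th percentile of positive values over all genes (2.65 per kilobase) was added to both libraries, and genes whose mean reached it were counted as tested. Of the members, 1792 passed and 426 did not. Their median log2 ratio was -0.04, with quartiles at -0.29 and 0.22, beside -0.08 over all 15480 genes tested. At 2-fold, 19 members were higher in KO and 27 lower, which is 1.06% and 1.51% of those tested; over all genes tested the same shares were 20% and 20.5%. At 1.5-fold, 115 were higher and 145 lower (6.42% and 8.09%), against 27.1% and 30.3% over all genes.

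**Figure D1:**
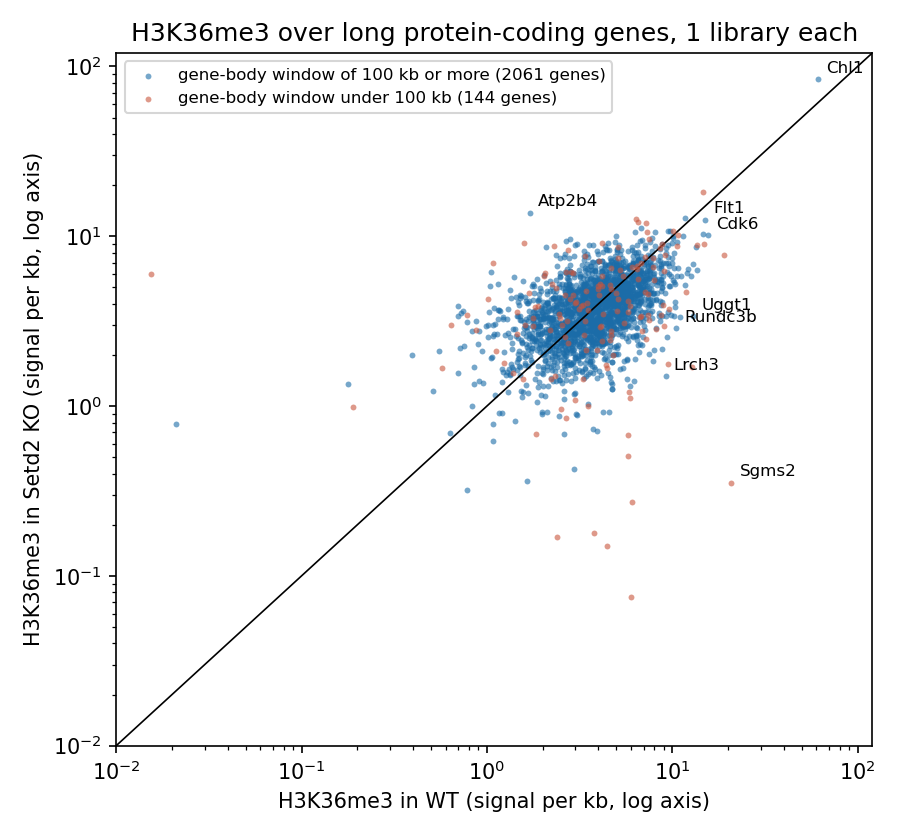
H3K36me3 signal per kilobase in the WT library (x axis, log scale) and the Setd2 KO library (y axis, log scale), 1 point per long gene with signal in both. Blue marks the 2061 genes with a recovered window of at least 100 kb and red 144 with a shorter one, which may be a fraction of the true window. The line marks equal values and the 13 genes listed at 0 in either library are not drawn. In KO the 10th and 90th percentiles are 1.99 and 6.32, Chl1 stands apart at the top in both libraries, and Sgms2 lies far below the line.

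How closely the libraries matched followed gene length. Among protein-coding genes the log2 ratio had an SD of 2.98 under 3 kb, 2.09 at 3 to 10 kb, 1.40 at 10 to 20 kb, 0.96 at 20 to 50 kb and 0.64 at 50 to 100 kb. Among the long genes it was 0.49 at 100 to 200 kb, 0.32 at 200 to 500 kb and 0.30 from 500 kb on. The share of genes listed at 0 in WT went from 74.9% under 3 kb to 0.592% at 100 to 200 kb. Members listed at 0 numbered 2 in KO and 11 in WT, whereas 199 and 324 of the 6639 genes of 20 to 100 kb were. The low counts at 2-fold in long genes thus stood beside a narrower spread at every step of length, and how much of the wide spread in short genes lies in the measurement was not tested. The median level was a little lower in longer genes, from 3.90 per kilobase in KO at 100 to 200 kb to 3.25 from 500 kb on.

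**Figure D2:**
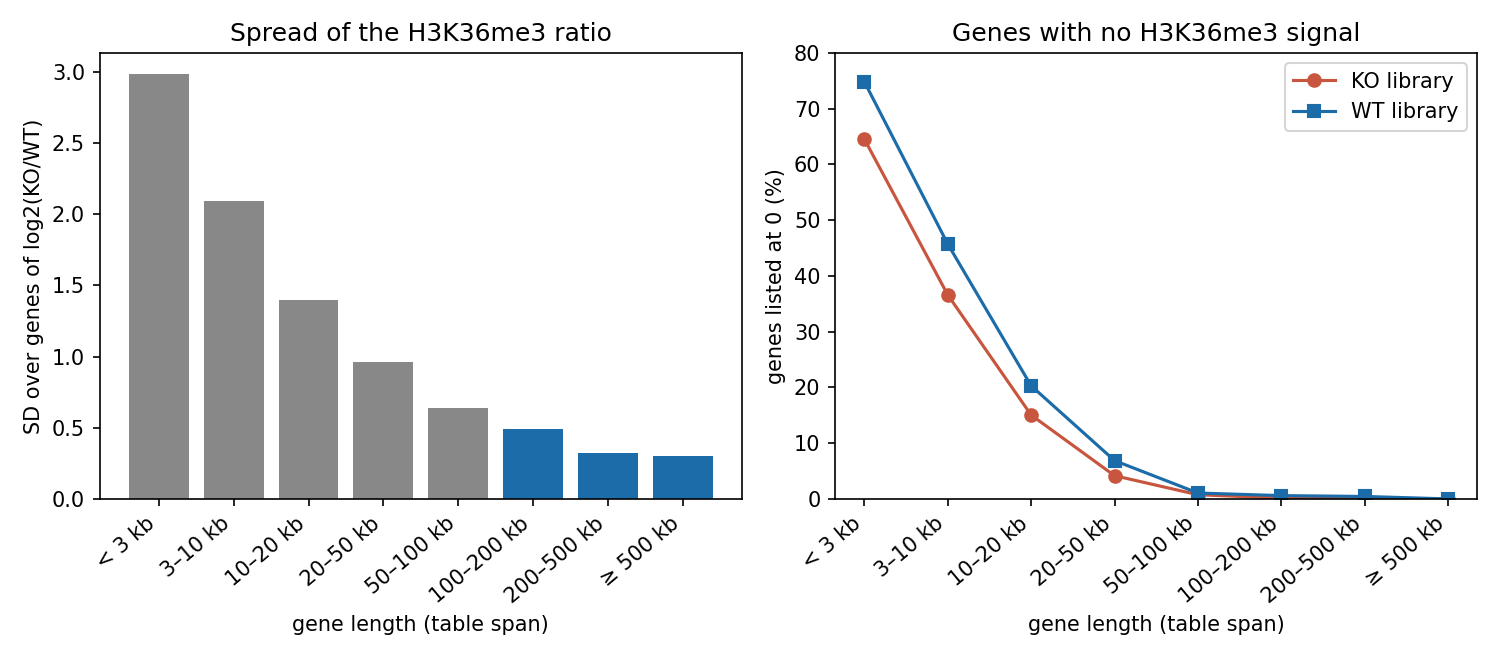
Left, SD over genes of log2(KO/WT) of H3K36me3 for protein-coding genes by length, with long genes in blue; right, percent of genes listed at 0 in each library. The SD went from 2.98 under 3 kb to 0.30 from 500 kb on, and the share at 0 in WT from 74.9% to 0.

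The 4 widest H3K36me3 ratios among members tested, those of Ccl1, Sgms2, Pate2 and Nsun2, belonged to genes with short recovered windows. Sgms2, a sphingomyelin synthase, had 0.35 per kilobase in KO and 20.8 in WT (log2 ratio -2.96). Over its recovered window of 25938 bases that is 13 reads against 770, counts that depend on the window. Ccl1, a chemokine with a window of 3147 bases, was at 33.9 in KO while WT was listed at 0. Pate2, Rasgef1b, Nsun2 and Ccdc34 also had recovered windows of 35508 bases or less. The RefSeq lengths of Sgms2, Pate2 and Ccdc34 were 172459, 61090 and 158164 bases, so their windows may be fractions of longer ones. Over the 1673 tested members with a recovered window of at least 100 kb, 11 were 2-fold higher in KO and 15 lower.

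Among members with windows of at least 100 kb and a mean above the median, the lowest ratio was that of Lrch3 (chromosome 16, 32914100 to 33015647), a leucine-rich repeat protein, with 1.498 per kilobase in KO and 9.20 in WT, or 216 and 1340 reads. Uggt1, which tests the folding of glycoproteins in the endoplasmic reticulum, had 3.39 and 12.97 (log2 ratio -1.37). Rundc3b had 2.87 and 10.5 (-1.26), Tspan5, a tetraspanin, 2.17 and 8.84 (-1.25), and Pcnx 1.83 and 7.89 (-1.23). Myrfl, Igf2bp2, an RNA-binding protein of fetal tissues, and Hip1, an endocytic adaptor, followed at -1.21, -1.19 and -1.15. The Igf2bp2 promoter went the other way in H3K27ac without the vitro label, with 35.3 in KO against 7.15 in WT.

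In the other direction, Atp2b4 (chromosome 1, 133699457 to 133801041), a plasma membrane calcium pump, had 13.8 per kilobase in KO and 1.70 in WT, or 1990 and 248 reads, a log2 ratio of 1.92. Its promoter also had more vitro H3K27ac in KO, 16.6 against 1.72. Iqsec3 followed at 1.25, Rin2, a Rab5 effector, at 1.18 with 9.37 against 2.67, Fam178b at 1.17, Fam13c at 1.06 and Clec16a at 1.03. Rin2 likewise had more H3K27ac in KO in both pairs, 32.0 against 13.5 and 57.1 against 24.0. Over all 2218 members the rank correlation of the H3K36me3 ratio with the H3K27ac ratio was 0.05 in the vitro pair and 0.01 in the other.

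The highest signal in the H3K36me3 libraries was that of Chl1 (chromosome 6, 103510586 to 103750211), a neural adhesion protein related to L1, with 83.8 per kilobase in KO and 61.2 in WT. These were 26344 and 19420 reads, and the next gene with a long window, Flt1, a receptor for vascular endothelial growth factor, had 12.5 and 15.1. Chl1 had little promoter H3K27ac, between 1.43 and 4.71 in the 4 libraries. Each H3K36me3 value is an average over the window, so it does not show where in the gene the reads lie. Whether they spread over the Chl1 body or pile up at few sites was not tested. Cdk6, a cyclin-dependent kinase of the G1 phase, had 10.1 in KO and 15.6 in WT. Adgrd1 had 10.2 and 14.7, and Cdk14 had 8.68 and 13.4. Tns1, a focal adhesion protein, and Rasa3, a Ras GTPase-activating protein, were also among the 8 highest with windows of at least 100 kb, with 10.1 and 11.4, and 10.7 and 9.73.

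Members were ranked by WT promoter H3K27ac without the vitro label into 5 groups of equal size. The question was whether H3K36me3 over long genes followed WT promoter activity in each library. No grouping by KO H3K27ac was made, so the KO slope does not describe the promoters of the KO cells. From the lowest to the highest group the mean H3K36me3 went from 3.31 to 4.92 per kilobase in WT and from 3.51 to 4.55 in KO. The medians went from 2.86 to 4.45 in WT and from 3.14 to 4.15 in KO. Chl1, far above all other members, lies in the lowest group and raises its means. The log2 ratio of highest over lowest group was 0.57 in WT and 0.37 in KO. KO was above WT in 53.6% of genes in the lowest group and in 43.2% in the highest. The difference between the genotypes' slopes, -0.20 on the log2 scale, has no replicate check; it was -0.14 with groups by WT vitro H3K27ac, and the median span fell from 193422 to 145522 bases along the groups. By groups of WT H3K27me3 the means were 4.05, 3.97, 4.198, 4.004 and 4.67 in WT and 3.75, 3.93, 4.07, 3.97 and 4.50 in KO, from lowest to highest. The medians were 3.68, 3.72, 3.63, 3.69 and 4.31 in WT and 3.48, 3.80, 3.56, 3.62 and 4.15 in KO. Chl1 lies in the middle of these groups and raises its means. Across the 2218 members the rank correlation of H3K36me3 with promoter H3K27ac of the same genotype was 0.29 in WT and 0.20 in KO without the vitro label; these genes share libraries and base composition, and the correlation of KO with WT H3K36me3 itself was 0.48.

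**Figure D3:**
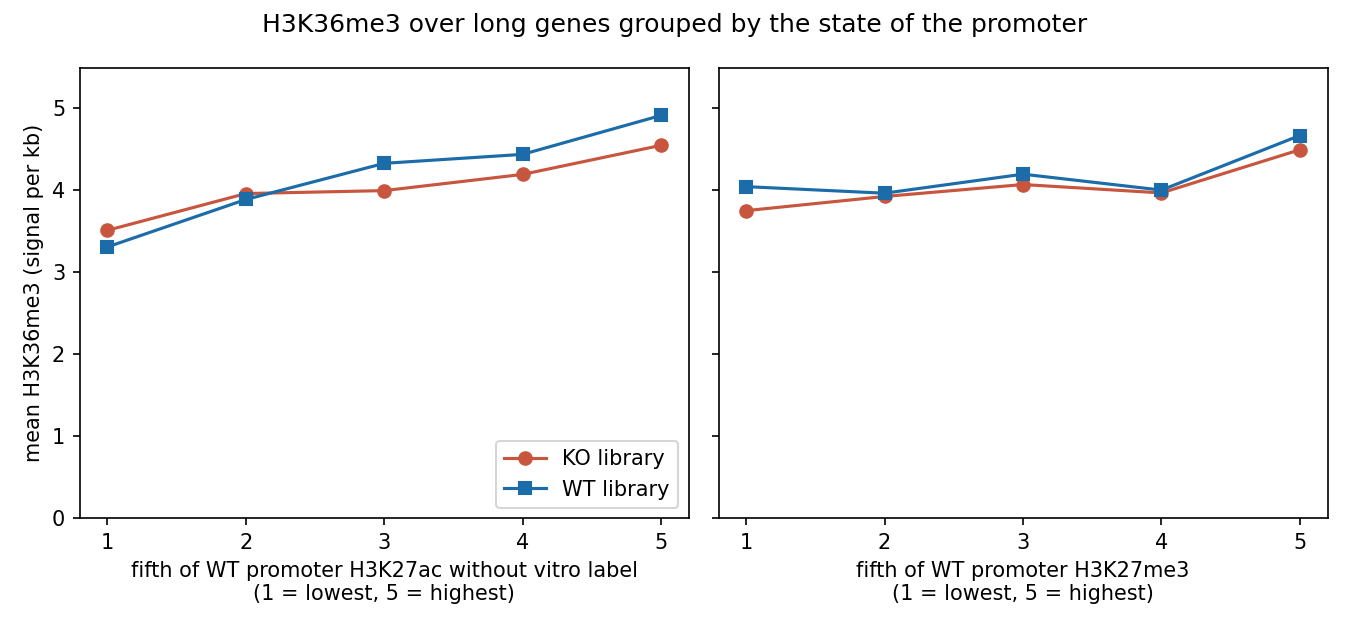
Mean H3K36me3 signal per kilobase over long genes in the KO and WT libraries (y axis) by 5 groups of WT promoter H3K27ac without the vitro label (left) or of WT promoter H3K27me3 (right), 443 or 444 genes per point. Along H3K27ac the WT means span 3.31 to 4.92 and the KO means 3.51 to 4.55; along H3K27me3 both lines are highest in the last group, at 4.50 in KO and 4.67 in WT.

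H3K36me3 over long genes also varied by chromosome. The 102 members on the X chromosome had a median of 1.78 per kilobase in KO and 1.99 in WT, against 3.83 and 3.90 for the 2114 autosomal members. Their promoter H3K27ac was also lower, at 0.35 to 0.49 of the autosomal median in the 4 libraries, while H3K27me3 was at 0.79 in KO and 0.92 in WT. Chromosome 1 had a higher median in KO, 3.93 against 3.47, with KO above WT in 114 of 176 members. Chromosome 5 had 3.99 against 4.78 and KO below WT in 92 of 135, and chromosome 18 had 3.19 against 4.06 and KO below WT in 77 of 106.

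The first 20 Mb of chromosome 5 had the lowest median H3K36me3 ratio of the 123 stretches of 20 Mb that held at least 8 members. Its 14 members had a median of 3.95 per kilobase in KO and 7.67 in WT, and KO was below WT in 13 of them, Magi2 being the exception. Vitro H3K27ac was lower in KO in 12 of 14 and H3K27me3 in 13 of 14, while H3K27ac without the vitro label was lower in 7 of 14. Over all 2218 members KO was below WT in 1167, 846 and 912 in that order, and in 1170 for H3K36me3. The genes in order from the chromosome end begin with Cdk6, whose promoter had the highest vitro H3K27ac of any member, 260.6 in KO and 428.3 in WT. Ankib1, whose start site lies within 3 kb of that of Krit1, followed with 59.6 and 174.9. Akap9, an anchoring protein for protein kinase A, had 43.3 and 91.3, and Cdk14 had 93.9 and 174.7. The semaphorin Sema3e had 75.9 in KO and 196 in WT, but its neighbour Sema3a had 85.6 and 22.5. Without the vitro label Cdk6, Ankib1, Akap9 and Cdk14 were all higher in KO. They had 153.5, 42.2, 38.6 and 37.6 there, against 106.8, 27.5, 18.6 and 31.9 in WT. Whether the lines differ in the number of copies of this stretch was not tested.

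**Figure D4:**
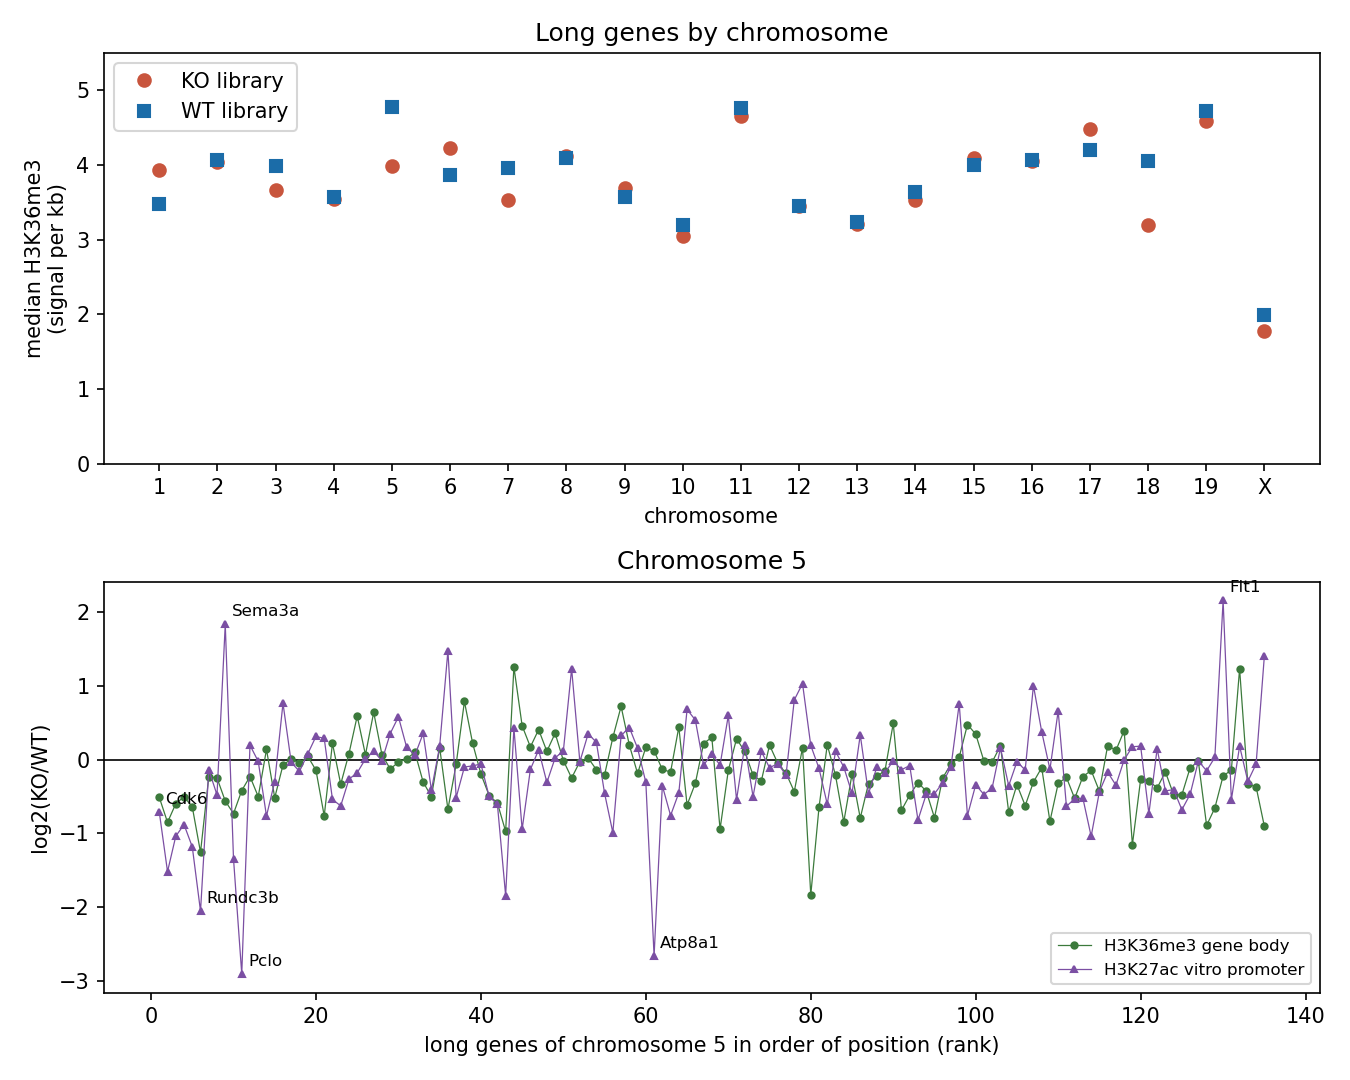
Top, median H3K36me3 signal per kilobase of long genes by chromosome in the KO and WT libraries; bottom, log2(KO/WT) of H3K36me3 and of vitro promoter H3K27ac for the 135 long genes of chromosome 5 in order of position. The X chromosome lies lowest in both libraries, and the first 14 genes of chromosome 5 lie below 0 except Magi2 in H3K36me3 and Sema3a and Sema3c in vitro H3K27ac.

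The H3K27ac comparisons ask whether the activity mark at promoters of long genes differed between the genotypes. Without the vitro label the members' medians per kilobase were 8.76 (KO) and 7.65 (WT). The floor was 3.29, 1778 members were tested and the median log2 ratio was 0.30, beside 0.32 over all 18669 genes tested. Among protein-coding genes the median went from 0.27 under 3 kb to 0.41 at 50 to 100 kb. It was then 0.33 at 100 to 200 kb, 0.28 at 200 to 500 kb and 0.05 from 500 kb on. In that last band 5 of 103 genes tested were 2-fold higher in KO and 7 lower. At 20 to 100 kb these were 860 and 195 of 5908. Over all genes of a band, the median signal was 3.18 in KO and 4.41 in WT from 500 kb on. At 20 to 100 kb it was 13.9 and 10.3. Length and signal level were not separated. At 2-fold, 242 members (13.6%) were higher in KO and 82 (4.61%) lower; over all genes the shares were 13.1% and 4.32%. At 1.5-fold the counts were 596 and 203, that is 33.5% and 11.4%, against 33.3% and 11.5% over all genes. Of the members past 2-fold, 74.7% were on the higher side, but 35.4% when ratios were centred on the median of all genes and 52.6% after quantile normalization of the pair.

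In the vitro pair the medians were 7.49 in KO and 6.55 in WT. With a floor of 2.18, 1747 members were tested, and the median log2 ratio was 0.01 beside -0.07 over all 18958 genes tested. There were 111 members 2-fold higher in KO (6.35%) and 62 lower (3.55%), against 3.95% and 3.57% over all genes. At 1.5-fold 270 were higher and 232 lower, 15.5% and 13.3% against 10.9% and 13.6%. In this pair the share of members higher in KO was thus above the background, and the share lower in KO was near it. Vitro signal relative to the other setting had a median log2 ratio of -0.11 in KO and 0.13 in WT over the members tested, beside -0.11 and 0.21 over all genes.

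Col5a1 had the highest ratio in the vitro pair, 63.7 per kilobase in KO and 5.98 in WT (557 and 52 reads, log2 ratio 3.01), and 46.9 against 13.5 in the other pair. Dpysl3, which binds microtubules in migrating neurons, had 28.7 and 2.87. Amotl1, a regulator of cell junctions and the Hippo pathway, had 27.45 and 3.045, and Rasgrf1 25.9 and 3.16. Meis1, a homeobox transcription factor, had 22.4 and 2.815, Flt1 30.6 and 5.17, and Trpm6, a magnesium channel, 60.8 and 12.1. The uncharacterised 1700025G04Rik had 28.995 and 6.55. Outside the vitro pair Amotl1 had 18.6 in KO and 21.8 in WT, and the log2 ratios of Flt1 and Trpm6 were 0.26 and 0.37. Those of Dpysl3, Rasgrf1, Meis1 and 1700025G04Rik there lay between 0.79 and 1.71.

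Pclo had the lowest vitro ratio, 5.83 in KO and 57.8 in WT (51 and 503 reads, log2 ratio -2.90), and 1.53 against 15.5 in the other pair. Cdh13, a cadherin without a cytoplasmic tail, had vitro values of 2.63 and 30.3, beside 4.66 and 15.5 for the other pair. Atp8a1 had 2.97 and 30.4 in the vitro pair but 17.6 and 17.7 in the other, so its difference was seen in 1 setting only. Rundc3b, Pkhd1, the fibrocystin of bile and kidney ducts, Hs3st1 and Ankib1 had vitro ratios between -2.05 and -1.52. Mecom, a zinc-finger transcription factor, had 27.5 and 97.6. In the pair lacking the vitro label Ankib1 went the other way, with 42.2 in KO and 27.5 in WT. The log2 ratios of Rundc3b, Mecom, Hs3st1 and Pkhd1 there lay between -0.99 and -0.23.

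Among members above the median of mean signal, the highest ratio outside the vitro pair was that of Diaph3, a formin that builds actin filaments, with 21.8 in KO and 1.72 in WT, but 14.1 and 12.7 in the vitro pair. Runx1, a transcription factor of the Runt family, had 57.8 and 12.0, and 86.1 and 27.8 in the vitro pair. Sdccag8, a centrosomal protein whose start site lies within 3 kb of that of Cep170, had 96.4 and 21.7. Rps6ka2, Igf2bp2, Mad1l1, Nebl and Osbpl3 had log2 ratios between 1.75 and 1.95. The lowest under the same limit on mean signal was Prom1, the CD133 antigen of epithelial progenitors, with 4.71 in KO and 19.8 in WT. Fam168a, Man1a, Pde8a, Tbc1d1 and Myh10 had ratios between -1.47 and -1.23, Myo5b -1.14 and Cracdl -1.10.

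Of 1597 members tested in both pairs, 118 (7.39%) were at least 1.5-fold higher in KO in both, beside 5.24% over all genes tested. They make up 21.1% of the members higher without the vitro label and 46.6% of those higher in the vitro pair. Another 43 (2.69%) were lower in both, beside 2.28% over all genes. In 50 (3.13%) the pairs were at least 1.5-fold apart in opposite directions, beside 3.47% over all genes. The members with the largest smaller ratio were 1700025G04Rik, Aim2, a sensor of cytosolic DNA, Col5a1, Runx1, Tnni3k, Dpysl3, Sema3a, a secreted axon guidance factor, and Lhfpl2 on the higher side. On the lower side, they were Pclo, Kank1, Cdh13, Myo5b, a myosin of apical recycling in epithelia, Rsrc1, Cracdl, Shtn1 and Hnf4g, a nuclear receptor of gut epithelium. The start site of Rsrc1 lies within 3 kb of Shox2, so its window is largely shared. The same limit held for other genes named for promoter marks: Ankib1 (Krit1), Mad1l1 (Nudt1), Man1a (Gm16998), Fgfr2 (Ctbp2), Tbxas1 (Hipk2) and Ccr9 (Slc6a20a). Their promoter values may belong in part to the neighbour in brackets.

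The H3K27me3 comparison asks whether the Polycomb mark at promoters of long genes differed. Its median was 6.38 per kilobase in KO and 5.15 in WT, higher than over all genes (3.79 and 3.18). With a floor of 1.54, 1886 members were tested; the median log2 ratio was 0.23, beside 0.18 over all 19028 genes tested. At 2-fold 305 members (16.2%) were higher in KO and 89 (4.72%) lower, against 15.4% and 6.92% over all genes. At 1.5-fold 591 were higher and 255 lower, 31.3% and 13.5% against 30.1% and 16.8%. Members lower in KO were thus a smaller share than the background, and members higher in KO were near it. Of those past 2-fold, 77.4% were on the higher side, 59.5% with ratios centred on the median of all genes and 62.6% after quantile normalization.

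Among members above the median of mean signal Tanc2 had the highest ratio, 30.8 per kilobase in KO and 3.18 in WT (280 and 29 reads, log2 ratio 2.78). Plcb4 had 17.975 and 1.425, Pcx, the mitochondrial pyruvate carboxylase, 36.9 and 4.71, and Nbea, a scaffold of vesicle traffic, 14.8 and 1.21. Nos1ap, Stk39, Ccr9 and Vgll4 had ratios between 2.18 and 2.53. The lowest under that limit was Acacb, the acetyl-CoA carboxylase of mitochondria, with 2.198 in KO and 13.6 in WT (log2 ratio -2.02), followed by Csrnp3 with 3.85 and 17.3, Tprg, Stk32a, Fgfr2 and Parp8. Zeb2, a repressor of epithelial genes, had 8.85 and 24.7. At the genes with the most H3K27me3 in WT the mark was high in both libraries: Cdh22 had 123 in KO and 133 in WT, Lef1, a transcription factor of Wnt signalling, 216 and 118, Syt2 197 and 118, and Ebf2 134 and 112.

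H3K27ac and H3K27me3 differed in opposite directions by at least 2-fold in few members. In the vitro pair, 6 of 1455 members tested for both marks were lower in H3K27ac and higher in H3K27me3 in KO (0.412%, beside 0.875% over all genes): Lrba, Mecom, Stk39, Cracdl, Spata13 and Ptpn3. At Mecom, H3K27me3 was 81.0 in KO and 22.2 in WT. The opposite pattern had 12 members (0.825%, beside 0.488%), of which Sema3a, Zeb2, Peli2, Zfhx3 and Angpt1 led. Sema3a had 2.03 H3K27me3 in KO against 12.7 in WT, and Zfhx3, a large homeobox protein, 0.22 against 3.62. Without the vitro label, 11 of 1484 were lower in H3K27ac and higher in H3K27me3 (0.741%, beside 0.507%), led by Tbxas1, Nhsl1, Eya4 and Man1a. In the same pair 8 were the reverse (0.539%, beside 0.906%), led by Sema3a and Sil1, with Zeb2 among them. Of 120 members with H3K36me3 at least 1.5-fold lower in KO and both marks tested, 38 (31.7%) had H3K27me3 at least 1.5-fold higher, the same share as among all 1533 such members (31.7%).

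**Figure D5:**
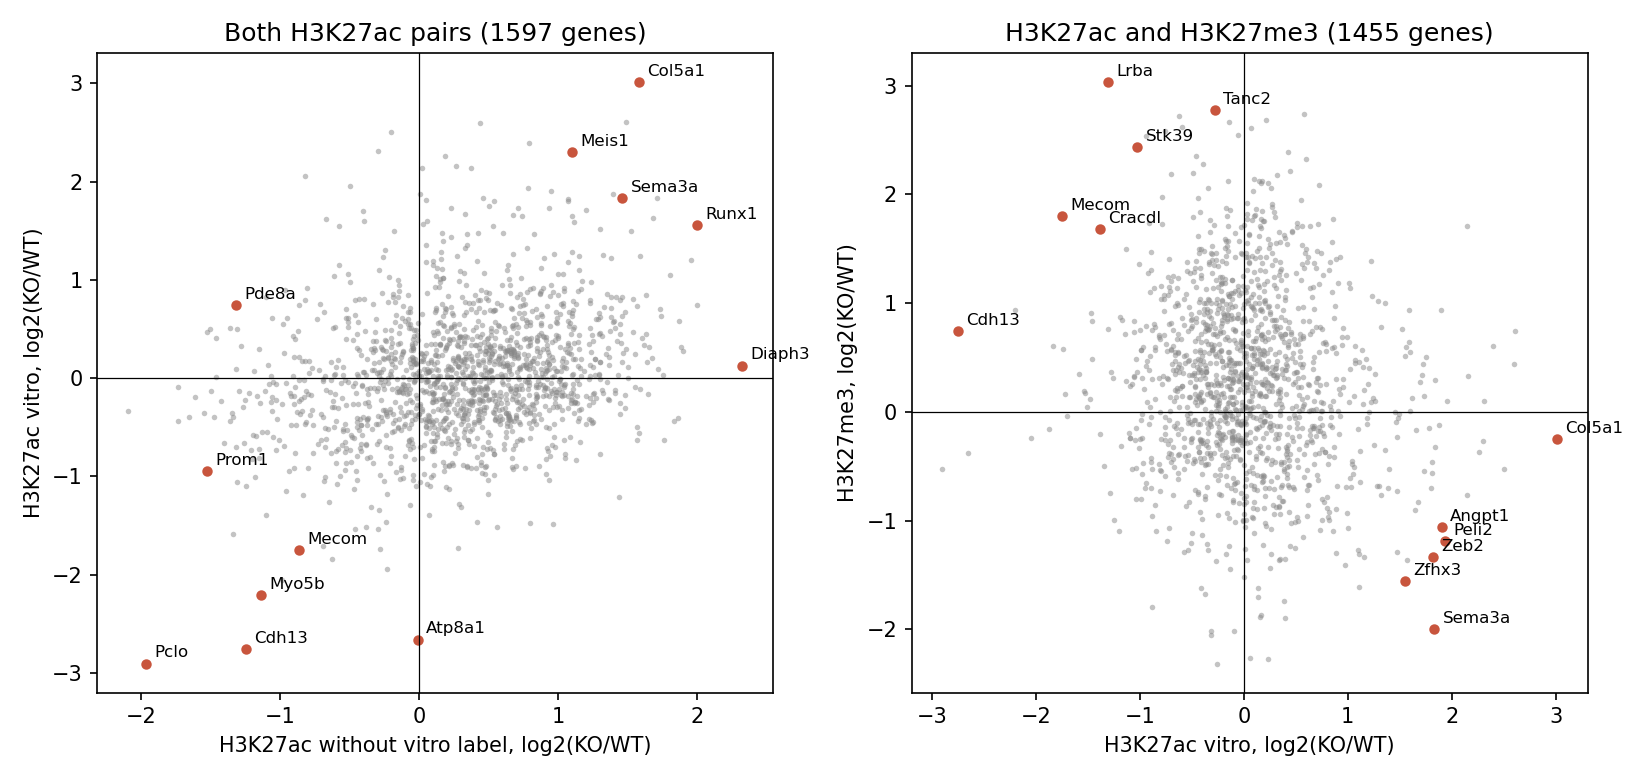
Left, log2(KO/WT) of promoter H3K27ac in the unlabelled pair (x axis) and the vitro pair (y axis) for 1597 long genes; right, log2(KO/WT) of vitro H3K27ac (x axis) and H3K27me3 (y axis) for 1455 long genes; named genes are drawn in red. Col5a1 and Runx1 lie in the upper right and Pclo and Cdh13 in the lower left of the left panel, and Sema3a and Zeb2 lie opposite Mecom and Lrba in the right panel.

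Lists of functions rich in long genes were described by counts at 1.5-fold and by their medians. The lists were drawn up with earlier results of these data known, so a direction in them is not independent evidence. Over all genes tested, 27.1% were 1.5-fold higher in H3K36me3 and 30.3% lower. Among the long genes tested, from which the lists are drawn, the shares were only 6.42% and 8.09%, so few or no genes past 1.5-fold is usual for a list of this size. In H3K36me3 the list medians lay between -0.23 for 19 RNA-binding and splicing regulators and 0.14 for 18 common fragile site genes, against -0.04 for all long genes. No member of the fragile site list was past 1.5-fold, and none of the synapse and neuronal adhesion list (25 tested) was. Among 30 tested genes of epithelial polarity and junctions 3 were lower, among them Epb41l4b (3.97 in KO, 7.59 in WT) and Dlg5 (4.78 and 8.71), and none higher.

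In H3K27ac without the vitro label, KO was at least 1.5-fold above WT in 10 of 18 genes of TGF-beta, BMP and Wnt signalling and as far below it in none, with a median log2 ratio of 0.72 against 0.30 for all long genes. Acvr1, a type I receptor for BMPs, had 60.3 in KO and 20.1 in WT, Smurf2, a ubiquitin ligase that acts on the pathway, 24.1 and 9.09, and Ltbp1, which stores latent TGF-beta in the matrix, 12.2 and 4.43. In the vitro pair the list had 3 of 18 higher and none lower, Ltbp1 with 16.6 and 6.84, Acvr1 with 61.5 and 34.5, and Tcf7l2, a Wnt effector, with 68.7 and 41.9. Over all genes the shares higher and lower were 33.3% and 11.5% without the vitro label and 10.9% and 13.6% for vitro H3K27ac. Transcription factors had 22 of 59 higher, near that background, and 4 lower without the vitro label, and 13 of 51 higher and 4 lower in the vitro pair. In the latter Gli3, a Hedgehog effector, had 17.3 and 1.03, and Runx2 10.1 and 1.15. Cadherins and catenins had 2 of 17 higher and 7 lower without the vitro label, where Fat4 had 3.50 in KO and 14.97 in WT and Cdh6 2.08 and 8.65. Common fragile site genes had 2 of 16 higher and 6 lower without the vitro label, and a median of -0.32. KO over WT in that pair rose with signal level. Members in the lowest of 5 groups by WT H3K27ac had medians of 1.89 in KO and 2.245 in WT. In the highest group these were 29.96 and 20.10. Medians in KO and WT were 3.94 and 7.29 for the fragile site list and 3.94 and 5.82 for cadherins. They were 18.9 and 9.98 for the TGF-beta list. How far signal level accounts for these list counts was not tested. Epithelial polarity genes had 2 of 33 higher and 8 lower in the vitro pair, Pkhd1 with 7.78 and 36.1 among the latter, but 8 of 31 higher and 5 lower in the other pair, with a median of 0.14.

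In H3K27me3, KO exceeded WT by 1.5-fold or more in 15 of 32 epithelial polarity and junction genes and fell short of it by as much in 2, with a median of 0.50 against 0.23 for all long genes. Myo1d, an unconventional myosin, had 8.90 in KO and 0.11 in WT, Tjp1, the tight junction scaffold ZO-1, 8.24 and 0.33, and Ptprk 6.71 and 0.38. These WT values amount to few reads, and H3K27ac at Tjp1 without the vitro label was 11.3 in KO and 8.65 in WT. Chromatin regulators had 12 of 27 higher and 2 lower, with a median of 0.54. Ion channels had 12 of 37 higher and 5 lower, near the 30.1% and 16.8% of all genes. Fibroblast and mesenchymal genes had the lowest median, -0.15, with 2 of 26 higher and 3 lower, Zeb2 among them. Leukocyte and endothelial lists had medians of 0.14 and 0.21.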

How the data were processed

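CUT&Tag libraries of 3 marks were analysed from 1 deposited table of 25450 rows and 8 signal columns, 1 library per group. Per the submitters' processing notes, the authors used MACS2 2.2.7.1, Bowtie2 2.4.2 and HOMER; the build was mm10. Which step each tool served, any duplicate filter and the scaling factor are not stated there. The deposited signal is a scaled read count per base of a promoter window or gene body, printed here times 1000, per kilobase. Coordinates and lengths are those of the authors' deposited annotation columns. Names were matched to RefSeq (GRCm38.p6): 25222 rows by current symbol, 105 by an older one and 123 by none. Where a gene had several rows, that of highest mean was kept, leaving 25259 genes; 7265 rows without coordinates could not be members.

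For each pair, the floor (the 25th percentile of positive values over all genes) was added to both libraries, so log2((KO + floor)/(WT + floor)) understates differences at low values. Genes with a pair mean at or above the floor were called tested. Differences were counted at 2-fold and, for lists and pairs of marks, at 1.5-fold. Gene-body windows were sought as the shortest length giving whole hundredths (tolerance 1e-06) in both H3K36me3 libraries, or a multiple of it near the RefSeq or table length. Ratios were tested on simulated counts. Simulated windows were sought with their true length supplied as both the RefSeq and the table length. That check could not cover windows that differ from both. Python 3.11.15, numpy 2.4.6 and pandas 2.3.3 were used.

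Named genes were the 10 longest, the 8 highest and 8 lowest ratios per pair among members above the median of mean signal, the 8 highest levels of H3K36me3, WT H3K27ac and WT H3K27me3, leading members of both-pair and opposite patterns, and up to 3 members per list and pair; extremes among long windows and the chromosome 5 genes were added after their values were seen. The members and lists were chosen with earlier results of these data known. Alternatives were the pseudocount, filter, floor, centring, quantile normalization and length limit. Some named genes and a list are not reported here.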

Additional observations from a re-analysis of the deposited data

Results flagged for a closer look

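Pde8a, a cyclic nucleotide phosphodiesterase, went in opposite directions in the 2 H3K27ac pairs: the log2 ratio of KO over WT was -1.32 without the vitro label (5.04 per kilobase in KO, 17.5 in WT) and 0.74 in the vitro pair, where KO had 33 reads and WT 12. Of 1597 members tested in both pairs, 50 (3.13%) were at least 1.5-fold apart in opposite directions, beside 3.47% over all genes tested. With 1 library per group the difference between the settings was not tested.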

How the results depend on the processing

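Of 120 recomputed summary values, 77 stayed within their limits (0.1 for a median log2 ratio, 1.5 times for a share) and 42 moved past them. The remaining one changed sign: the median H3K27ac ratio without the vitro label was -0.014 once ratios were centred on all genes. With the added floor 5 times smaller, the percent of long genes 2-fold higher and lower was 4.30 and 5.64 for H3K36me3, 21.3 and 8.72 for H3K27ac outside the vitro pair, and the percent lower was 7.90 for vitro H3K27ac and 8.17 for H3K27me3. With it 5 times larger these were 0.0558 and 0.0558, 1.69 and 0.0 (median 0.16), 1.77 and 0.572, and 3.02 and 0.265, in the order H3K36me3, H3K27ac, vitro H3K27ac, H3K27me3. With the floor at the median of positive values they were 0.614 higher for H3K36me3, then 8.8 and 0.533, 3.92 and 1.60, and 8.0 and 1.38. Without a filter the H3K27ac median was 0.17. Centring gave 5.06 and 9.22 for H3K27ac, and a median of 0.051 with 7.58 lower for H3K27me3; quantile normalization gave medians of 0.034 and 0.035 for these marks and 7.1 higher for H3K27ac. H3K36me3 shares were 0.147 and 0.441 from 200 kb on, 3.07 and 4.32 from 50 kb on, and 0.658 and 0.897 with windows of at least 100 kb, chosen after seeing the data. The H3K36me3 contrast between promoter groups was 0.20 in KO and 0.33 in WT over genes reaching the floor. The SD of the H3K36me3 ratio was 0.66 from 100 kb on and 4.76 under 3 kb with the smaller addition, and 0.18 and 1.49 with the larger. The causes were not tested. Of 432 values of named genes, none changed sign and 107 moved by over 0.5. No paired analysis was possible because each group has 1 library and no replicate number, and replicates could not be left out.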
